A study of Mus musculus with 8 samples.

Results

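The expression of 5 genes that are commonly used as internal references, Ppia, Hprt, Tbp, B2m and Gusb, was followed across all 8 arrays of a study on mouse aortic smooth muscle. They were chosen as the probes printed 20 times per array whose RefSeq accession names 1 of these genes, which gave 5 of 60930 probes outside the control classes, and 5 of the 15 probes that carry any gene accession. The arrays were 1-colour (Cy3) Agilent arrays that probe long non-coding RNAs together with mRNAs of the mouse, and the study compared cells that lack Srf, the gene of serum response factor, or receive Myocd, the gene of its coactivator myocardin. There were 3 cultured groups of 2 arrays each, all of mouse aortic smooth muscle cells at passage 3 that had been exposed to adenovirus for 3 days at a multiplicity of infection of 100 in medium with 10% serum. They were wild-type cells with empty adenovirus (wild-type cells below), Srf knockout cells with empty adenovirus (knockout cells) and wild-type cells with Myocd adenovirus (Myocd cells). Virus exposure was therefore shared by all cultured groups, the controls included, and was not part of the labels' description of freshly isolated wild-type aorta and liver, with 1 array each. How Srf was deleted, the age and strain of the animals, and the relation between the replicates (other animals, other cultures or the same ones) are not given in the sources used here, so p-values measure only how these samples differed among themselves, and that spread may be technical.

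A reference gene serves as the denominator in quantitative PCR and blotting, and a change in it passes with opposite sign into every gene set against it. Such genes are chosen because most cells need their products, but each belongs to a pathway of its own. Ppia encodes cyclophilin A, an abundant cytosolic prolyl isomerase. Hprt encodes the purine salvage enzyme hypoxanthine-guanine phosphoribosyltransferase and lies on the X chromosome. Tbp encodes the TATA-binding protein of the basal transcription machinery. B2m encodes the light chain of MHC class I, which interferons induce in many cells. Gusb encodes beta-glucuronidase, a lysosomal hydrolase that degrades glycosaminoglycans.

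The stretches just before the transcription start are shown because the study altered serum response factor and its coactivator, which act through a promoter motif. Probe sequences were not used here. The sequences are the 150 bases before the RefSeq start of each gene on GRCm38.p6, written 5′ to 3′ along the gene's strand, and all 5 genes matched the promoter table by symbol. Capitals mark matches, on either strand, to any of 5 motifs. The TATA box was searched as TATAAA. For the GC box, a binding motif of Sp1, the search used the letters GGGCGG. The CCAAT box was searched under the letters of its name. An interferon response motif was taken as GAAANNGAAA. The CArG box, which serum response factor binds, completed the set. No match overlapped another.
Ppia (chr11:6415717-6415866, + strand): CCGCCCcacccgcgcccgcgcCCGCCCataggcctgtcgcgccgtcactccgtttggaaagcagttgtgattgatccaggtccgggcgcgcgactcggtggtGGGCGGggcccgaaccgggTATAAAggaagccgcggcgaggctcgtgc
Hprt (chrX:52987928-52988077, + strand): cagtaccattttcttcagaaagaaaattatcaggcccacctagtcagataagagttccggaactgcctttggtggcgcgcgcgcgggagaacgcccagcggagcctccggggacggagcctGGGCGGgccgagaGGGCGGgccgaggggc
Tbp (chr17:15499738-15499887, + strand): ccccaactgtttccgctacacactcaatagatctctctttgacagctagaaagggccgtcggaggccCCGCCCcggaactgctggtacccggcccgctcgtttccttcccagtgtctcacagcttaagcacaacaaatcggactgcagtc
B2m (chr2:122147537-122147686, + strand): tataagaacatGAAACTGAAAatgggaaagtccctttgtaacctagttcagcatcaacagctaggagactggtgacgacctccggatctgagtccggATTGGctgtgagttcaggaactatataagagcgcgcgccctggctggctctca
Gusb (chr5:130003050-130003199, - strand): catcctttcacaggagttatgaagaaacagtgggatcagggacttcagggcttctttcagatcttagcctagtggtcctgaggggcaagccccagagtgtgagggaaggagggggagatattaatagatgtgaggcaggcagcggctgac

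Ppia had the TATA box, starting 29 bases before the start, and 3 GC boxes. Hprt had 2 GC boxes and Tbp 1. B2m had the interferon response motif 139 bases and a CCAAT box on the opposite strand 53 bases before the start, and no GC box. The Gusb window held none of the 5 motifs, and the CArG box was in none of these windows. The same 150-base window of 32851 RefSeq promoters held the TATA box in 7.57%, the GC box in 28.6%, the CCAAT box in 24.5%, the interferon response motif in 1.59% and the CArG box in 0.916%. A match is a description of the letters and was not tested as a binding site.

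Each level below is the log2 processed intensity of a probe, averaged over its spots, minus the 75th percentile of all probes on that array. That percentile was 452 to 498 intensity units in culture, 364 in aorta and 165 in liver, and no spot was saturated. The median intensity of 15 probes with names beginning MM9NEGATIVE, also printed 20 times each, was 3.27 to 4.03 on all 8 arrays. In liver it was 3.31, among the wild-type and knockout arrays (3.27 to 3.43), while the Myocd and aorta arrays stood at 3.82 to 4.03. The 75th percentile of the liver array was thus the lowest of the 8, and its floor was not. All 5 genes were well above background on every array. Of the 800 spots involved, 45 were flagged as outliers and left out, 19 of them for B2m. The SD between spots of 1 gene on 1 array was 0.03 to 0.15 on the log2 scale, with medians of 0.05 for B2m, Gusb and Hprt, 0.06 for Tbp and 0.09 for Ppia. Spots of 1 array share their RNA, so this spread limits reading error only. The number of arrays limits the precision of every comparison, and the brightest Ppia spot reached 71.0% of the scanner's saturation value. Markers of smooth muscle or liver were not among the identified genes, so the labelled tissues were not checked against them.

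On the scale of the 75th percentile, Ppia and B2m had the smallest ranges of the 5 in culture. The Ppia level was 9.88 and 10.22 on the wild-type arrays, 10.07 and 9.96 on the knockout arrays and 10.07 and 10.06 on the Myocd arrays. The wild-type replicates held both its lowest and its highest value, and the other groups lay between them. The B2m level was 8.16 and 8.45 in wild-type cells, 8.47 and 8.17 in knockout cells and 8.32 and 8.41 in Myocd cells. Here too all 3 groups overlapped, and the Myocd arrays lay inside the range of the others.

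Hprt and Tbp were highest in wild-type cells. The Hprt level was 7.57 and 7.81 in wild-type cells, 7.54 and 7.43 in knockout cells and 7.42 and 7.34 in Myocd cells. The 3 groups did not overlap, but the nearest knockout and wild-type arrays were close to each other and so were the nearest knockout and Myocd arrays. The Tbp level was 3.17 and 3.10 in wild-type cells, 2.87 and 2.82 in knockout cells and 2.86 and 2.78 in Myocd cells. Wild-type arrays lay above all others, while knockout and Myocd arrays overlapped.

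Gusb had the widest spread of the 5 genes. Its level was 5.52 and 5.51 in wild-type cells, 5.84 and 5.69 in knockout cells and 5.05 and 4.87 in Myocd cells. The groups did not overlap, with knockout cells highest and Myocd cells lowest.

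**Figure D1:**
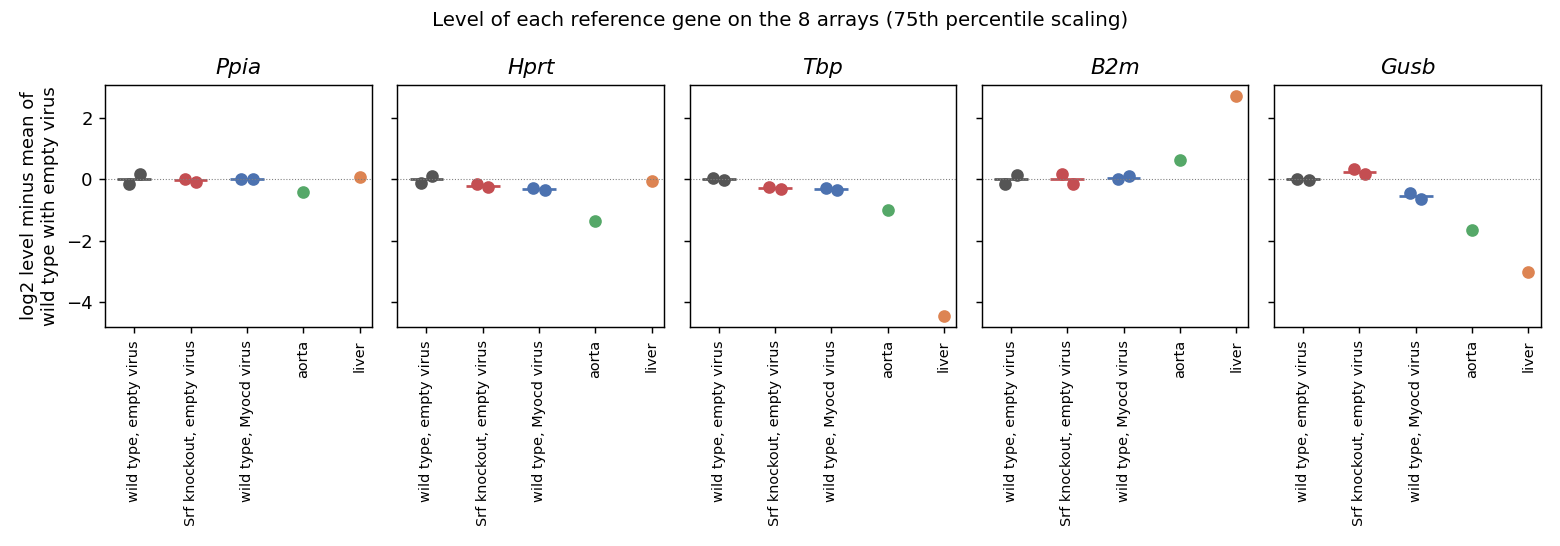
Level of each gene on the 8 arrays, as the log2 level minus the mean of the wild-type cells with empty virus (vertical axis), by group (horizontal axis). Points are arrays and bars the means of 2 arrays. The cultured arrays lie within 0.97 log2 units of each other for every gene, and liver stands at -4.48 for Tbp and 2.73 for B2m.

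In Srf knockout cells, none of the 5 genes differed from wild-type cells by limma's test over all 43985 tested probes, of which 20.7% were called at an adjusted p under 0.05. At an unadjusted p under 0.05 the count was also 0 of 5. Gusb stood at a log2 change of 0.25 (SE 0.15, 95% interval -0.11 to 0.61, limma adjusted p = 0.277), from 5.51 ± 0.0083 in wild-type to 5.77 ± 0.10 in knockout cells (SD, n = 2 each). Tbp stood at -0.28 (95% interval -0.62 to 0.05, limma adjusted p = 0.195) and Hprt at -0.21 (95% interval -0.58 to 0.17, limma adjusted p = 0.386). Ppia was at -0.04 (95% interval -0.44 to 0.37) and B2m at 0.01 (95% interval -0.43 to 0.45), and the sign of both depended on the scaling of the arrays or on single arrays. The widest change these intervals still allow is 1.36-fold for Ppia, downwards, and 1.37-fold for B2m, upwards, so equal levels were not shown. The groups did not overlap for 3 of the 5 genes, against 62.8% of all tested probes. The median log2 change was -0.04 over the 5 genes and 0.07 over all tested probes, and the median size was 0.21 and 0.35. Wild-type and knockout arrays shared slide 1.

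With Myocd adenovirus, Gusb stood lowest against wild-type cells, at 4.96 ± 0.13 against 5.51 ± 0.0083 (SD, n = 2 each). Its log2 change was -0.55 (SE 0.15, 95% interval -0.92 to -0.19), with both Myocd arrays below both wild-type arrays. This missed the threshold (limma adjusted p = 0.0585), and Gusb was the 1 gene of 5 with an unadjusted p under 0.05. It did not pass in 15 of 19 alternatives either and passed in 4, with limma adjusted p from 0.0164 with normexp to 0.294 without Myocd replicate 2. None of the 5 genes was called, against 15.2% of tested probes. Tbp stood at -0.31 (95% interval -0.65 to 0.02, limma adjusted p = 0.189) and Hprt at -0.30 (95% interval -0.68 to 0.07, limma adjusted p = 0.246). Ppia was at 0.02 (95% interval -0.39 to 0.42) and B2m at 0.06 (95% interval -0.39 to 0.50), again with signs that turned under median scaling. The groups did not overlap for 3 of 5 genes, against 56.9% of tested probes. The median log2 change was -0.30 over the 5 genes and -0.02 over all tested probes. This comparison uses the same wild-type arrays as the knockout comparison. Slide 2 carried the Myocd and tissue arrays, so slide and Myocd cannot be told apart.

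Myocd and knockout cells differed in Srf genotype, in virus and in slide, and these cannot be told apart. Between the groups, Gusb was 1.75-fold lower in Myocd cells, a log2 change of -0.80 (SE 0.15, 95% interval -1.17 to -0.44, limma adjusted p = 0.0104). It was the 1 gene of 5 called, where 28% of tested probes were called and 16.2% were called lower. Leaving out knockout replicate 1 gave -0.73 (limma adjusted p = 0.0919), leaving out knockout replicate 2 gave -0.88 (limma adjusted p = 0.0531) and leaving out Myocd replicate 2 gave -0.71 (limma adjusted p = 0.0819), each above the threshold. Ppia (0.05), Hprt (-0.10), Tbp (-0.03) and B2m (0.04) did not pass, and their 95% intervals reached at most 0.49 in size, or 1.40-fold. The groups did not overlap for 2 of 5 genes, against 71.7% of tested probes. In limma's F test for any difference among the 3 cultured groups, Gusb passed (F = 15.4, limma adjusted p = 0.0201) and the other 4 genes did not, with limma adjusted p from 0.200 for Tbp to 0.959 for B2m, while 32.3% of tested probes passed. Without any 1 knockout or Myocd array, Gusb no longer passed this F test, with limma adjusted p from 0.0707 to 0.130.

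**Figure D2:**
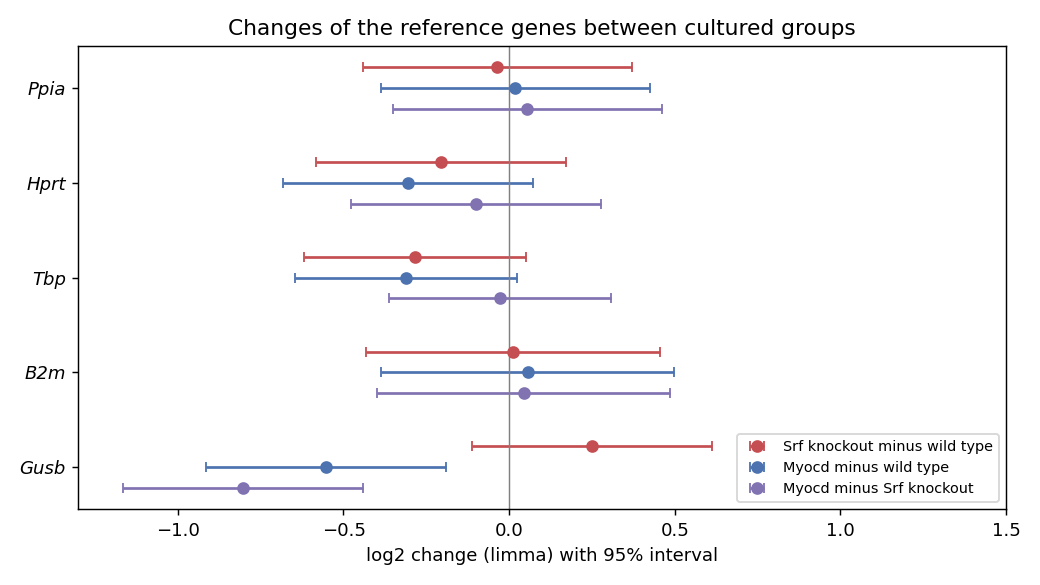
Log2 change (horizontal axis) of each gene (vertical axis) in the 3 comparisons of cultured groups, with limma's 95% interval as the error bar. Every interval of Ppia, Hprt, Tbp and B2m crosses 0, and both intervals of Gusb that involve Myocd lie below 0.

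The distance between the highest and the lowest of the 6 cultured arrays summarises stability without regard to group. It was 0.31 for B2m, 0.33 for Ppia, 0.39 for Tbp, 0.47 for Hprt and 0.97 for Gusb, where 1 unit is a 2-fold change and the median over 38151 probes well above background on all 6 arrays was 0.81. Of those probes, 5.24% had a smaller range than B2m, 6.45% than Ppia, 10.7% than Tbp, 17.2% than Hprt and 62.0% than Gusb. Most probes have a single spot, so the range was also taken for each spot of a gene on its own. The median single-spot range was 0.31 for B2m, 0.32 for Ppia, 0.40 for Tbp, 0.47 for Hprt and 0.97 for Gusb, close to the averaged values. For the other 10 identified genes the range ran from 0.51 to 2.63. B2m, Ppia, Tbp and Hprt thus held the 4 smallest of 15 ranges, and Gusb had rank 13. Which gene ranged least depended on the scale, and against the mean of the other 4 genes it was Hprt, at 0.27, with 0.43 for Ppia, 0.49 for Tbp, 0.52 for B2m and 0.88 for Gusb. For Ppia the range was 0.04 with quantile normalization, a method that sets the brightest probes of all arrays to the same values.

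Of the other 10 identified genes, limma called 2 in the knockout comparison (1 higher, 1 lower). It called 5 in the Myocd comparison (2 higher, 3 lower) and 4 between Myocd and knockout cells (3 higher, 1 lower). Their median size of change was 0.43, 0.51 and 0.30 in these comparisons, against 0.21, 0.30 and 0.05 for the 5 reference genes and 0.35, 0.31 and 0.38 for all tested probes. In the Myocd comparison the reference genes thus stood at the size of all probes.

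A ratio of 2 genes on the same array does not depend on how arrays are scaled, and it was followed for the 10 pairs. Over the 6 cultured arrays, Ppia and B2m had the smallest ratio SD, at 0.07 log2 units. Their levels differed between the wild-type replicates by 0.33 and 0.29 in the same direction, as did Hprt by 0.24, while Tbp and Gusb differed by 0.07 and 0.01 the other way. Hprt and Tbp had a ratio SD of 0.11, and Ppia and Hprt 0.15. The order rested on wild-type replicate 1, without which the SD was 0.08 for Ppia and B2m and 0.07 both for Hprt and Tbp and for Ppia and Tbp, a pair at 0.20 with all 6 arrays. Pairs that include Gusb were the least steady, from 0.33 with Hprt to 0.42 with B2m. Across all 8 arrays the order was another one. Ppia and Hprt had the smallest SD, at 0.30, followed by Tbp and Gusb at 0.65 and Ppia and B2m at 0.95. Tbp and B2m, at 0.23 in culture, had the largest, at 2.46. A steady ratio shows that 2 genes changed alike, not that either stayed constant.

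**Figure D3:**
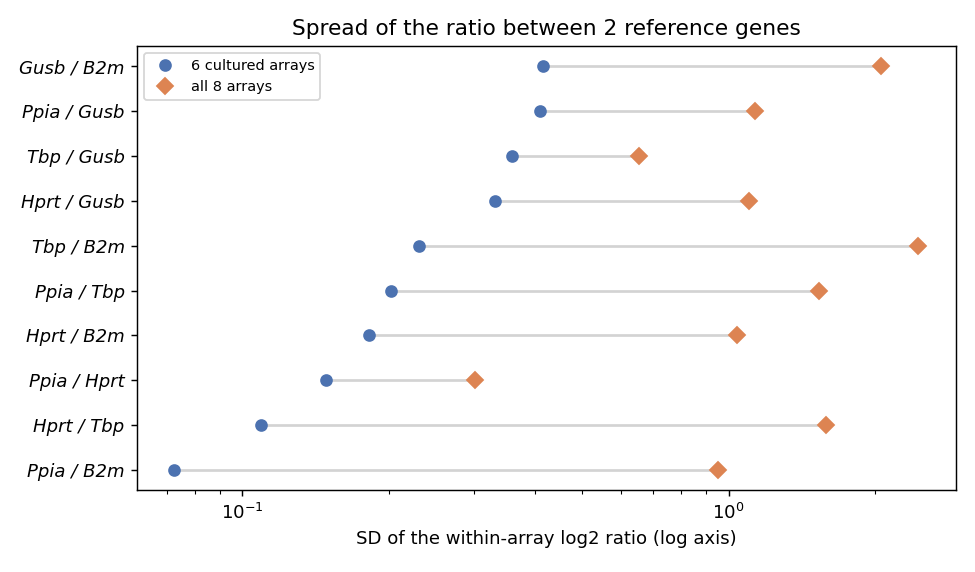
SD of the within-array log2 ratio (horizontal log axis) for each pair of reference genes (vertical axis), over the 6 cultured arrays (circles) and all 8 arrays (diamonds). Every pair is less steady once the tissues are included, from 0.30 for Ppia and Hprt to 2.46 for Tbp and B2m.

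Averaged over its ratios to the other 14 identified genes, Hprt had the smallest mean SD in culture (0.34), followed by Ppia (0.35), Tbp (0.36, rank 4 of 15) and B2m (0.36, rank 5). Gusb had rank 11, at 0.52. Over all 8 arrays Ppia and Hprt had ranks 3 and 4, with means of 1.07 and 1.08, while Gusb had rank 6 (1.13), Tbp rank 11 (1.39) and B2m rank 13 (1.64). By the SD of the ratio over 8 arrays, the identified genes most like Ppia were Hprt (0.30) and Gapdh (0.33), and those most like Hprt were Gapdh (0.26) and Ppia (0.30). Tbp was most like Hsp90ab1 (0.30) and Nono (0.46), Gusb like Tuba1b (0.45) and Hsp90ab1 (0.49), and B2m like Ldhal6b (0.30) and Gk (0.78). Ldhal6b was dim, with processed intensities of 24.9 to 62.1, and in culture the SD of its ratio to B2m was 0.33. These 14 candidates are the identified genes only, and the spread over 8 arrays is set mostly by aorta and liver.

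The gene that served as the reference changed how many probes were called and in which direction. With the 75th percentile, 6675 probes were called with Myocd against wild-type cells and 52.6% of them were higher. Set against B2m alone, 3928 probes were called (56.6% higher), and against Ppia alone 4723 (56.9% higher). Set against Hprt there were 7971 (83.8% higher), against Tbp 8682 (83.7% higher) and against Gusb 16843 (94.5% higher). The Gusb count is 2.52 times the count with the 75th percentile. Using a gene as the scale subtracts its own change from every probe, and with Gusb the median log2 change of all tested probes moved from -0.02 to 0.53. It also passes that gene's spread between replicate arrays into every probe, and the part of this spread in the counts was not tested. With each array's median as the scale, 42.3% of the calls were higher. Leaving out 1 array moved the count with the 75th percentile both ways. It fell without any 1 knockout or Myocd array and rose without either wild-type array.

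In the knockout comparison, 9089 probes were called with the 75th percentile and 59.3% were higher. B2m as the reference gave 5396 calls (67.8% higher), Ppia 6839 (72.2% higher), Hprt 10170 (83.2% higher), Tbp 13125 (84.8% higher) and Gusb 9087 (35.8% higher). With Gusb the number was almost that of the 75th percentile, but the larger share was lower rather than higher, as it was with each array's median as the scale (37.8% higher). Leaving out 1 array lowered the count with the 75th percentile for every array but wild-type replicate 2, without which it rose. Between Myocd and knockout cells, 12298 probes were called with the 75th percentile (41.9% higher), against 9066 with B2m (38.1% higher), 10599 with Ppia (36.0% higher), 10938 with Hprt (48.0% higher), 11690 with Tbp (44.1% higher) and 27767 with Gusb (90.9% higher). Leaving out any 1 knockout or Myocd array lowered the 75th percentile count between Myocd and knockout cells, and leaving out either wild-type array raised it. The mean of all 5 genes gave 8299 calls for the knockout (70.3% higher), 6862 for Myocd (77.1% higher) and 11462 between them (54.5% higher). Scaling to a single gene was added after the data had been seen.

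Between tissues and culture, Hprt, Tbp, B2m and Gusb were far less steady, while Ppia moved less on this scale. In liver, B2m stood 6.62-fold above wild-type cells, with a level of 11.04 against 8.31 ± 0.21 (SD, n = 2). Tbp stood 22.3-fold below, at -1.34 against 3.13 ± 0.05 (a log2 difference of -4.48, or -3.81 with normexp), and Gusb 8.12-fold below, at 2.49 against 5.51 ± 0.0083. Ppia, at 10.12 against 10.05 ± 0.23, and Hprt, at 7.64 against 7.69 ± 0.17, lay within the spread of the wild-type replicates. In aorta, Gusb stood 3.16-fold below wild-type cells (level 3.85), Hprt 2.56-fold below (6.33) and Tbp 2.02-fold below (2.12), while Ppia was 1.35-fold below (9.62) and B2m 1.54-fold above (8.93). The wild-type arrays were on slide 1 and both tissue arrays on slide 2. Slide and tissue therefore cannot be told apart when tissues are set against wild-type cells. There was 1 array per tissue, so no error or test can be given for these differences. They are levels of bulk RNA, in which fewer cells of a type and less RNA per cell cannot be told apart.

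From highest to lowest, B2m ran from liver through aorta to the cultured groups, whose neighbours did not differ beyond their spread. Tbp ran from wild-type cells through knockout and Myocd cells, which overlapped, to aorta and liver. Gusb ran from knockout through wild-type and Myocd cells to aorta and liver. For Hprt the lowest level was in aorta, and liver lay among the wild-type arrays. For Ppia too aorta was lowest, and liver lay among the cultured arrays. Over all 8 arrays the range was 0.59 log2 units for Ppia, 1.48 for Hprt, 2.87 for B2m, 3.34 for Gusb and 4.51 for Tbp, with a median of 2.08 over 31571 probes well above background on every array. Ppia was below all but 1.38% of those probes, while 90.2% had a smaller range than Tbp.

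At least 2-fold apart were 3 of 5 genes between liver and wild-type cells, against 69.7% of probes well above background in both. Between aorta and wild-type cells they were also 3 of 5, against 43.2% of probes, with Tbp just past the limit at -1.02. Tbp lay below 2-fold without wild-type replicate 1 (-0.98), with quantile normalization (-0.74) and against the mean of the other 4 genes (-0.31). Against the mean of the other 4 genes, Hprt in aorta also lay below 2-fold (-0.74) and B2m lay above it (1.73). Without wild-type replicate 1 the count was 2. Between aorta and liver they were 4 of 5, against 56.5% of probes. Aorta stood above liver for Tbp by 3.46 and for Gusb by 1.36 log2 units, and below it for B2m by 2.11, for Hprt by 1.31 and for Ppia by 0.50, the last below 2-fold. The median difference of all such probes was 0.94 for liver minus wild-type cells, 0.11 for aorta minus wild-type cells and -0.63 for aorta minus liver, so the 75th percentile did not put most probes at 0 in liver.

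The steadiness of Ppia and Hprt in liver depended on this scaling. Liver minus wild-type cells was 0.07 for Ppia and -0.04 for Hprt with the 75th percentile, -1.45 and -1.56 with no scaling between arrays, -1.12 and -0.58 with quantile normalization, -0.62 and -0.73 with median scaling and 1.27 and 1.13 against the mean of the other 4 genes. Aorta minus wild-type cells for Ppia also turned its sign against the mean of the other 4 genes, from -0.43 to 0.43. Under the same 5 scalings B2m was higher, and Tbp and Gusb lower, in both tissues than in wild-type cells. The mean of the other 4 genes is built from members that themselves differed between tissues and culture, so it is not an independent scale. For liver the difference stayed between 1.21 and 4.60 for B2m, between -6.00 and -4.41 for Tbp and between -4.54 and -2.59 for Gusb.

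**Figure D4:**
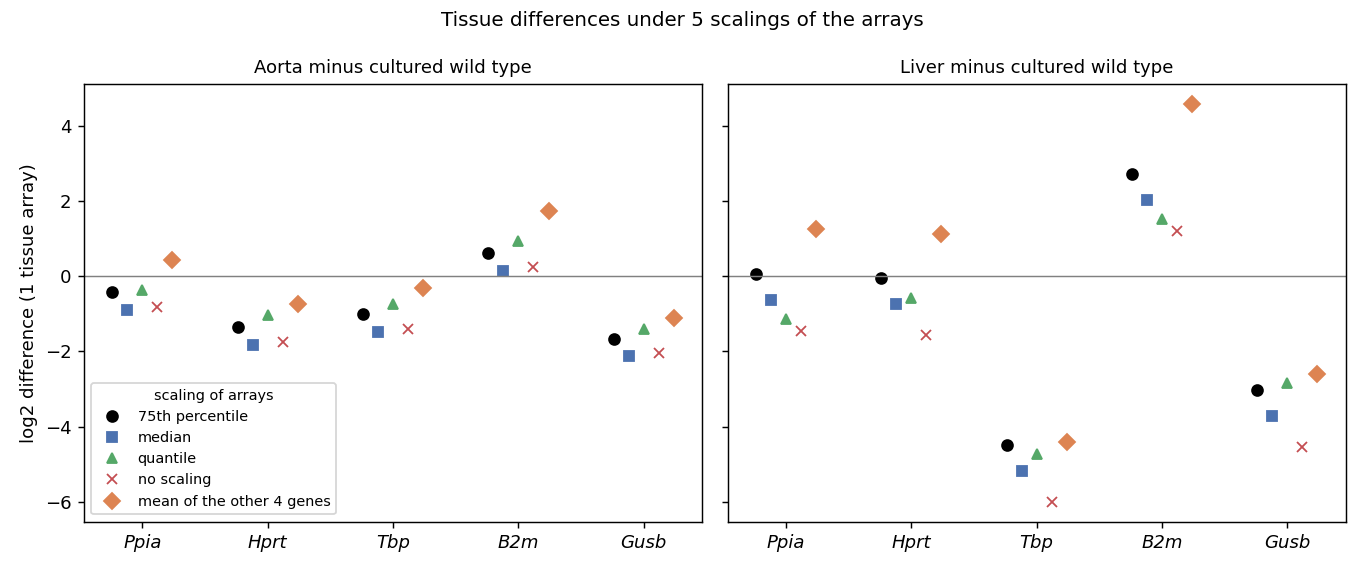
Log2 difference of aorta (left) and liver (right) from the mean of the 2 wild-type culture arrays (vertical axis) for each gene (horizontal axis), under 5 scalings of the arrays. Ppia and Hprt in liver lie near 0 with the 75th percentile and between -1.56 and 1.27 with the other scalings, while B2m stays above 0 and Tbp and Gusb stay below it.

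Ratios within an array carry the tissue differences without a scale. The ratio of Tbp to B2m was 147-fold lower in liver than in wild-type cells and 3.11-fold lower in aorta. The ratio of Gusb to B2m was 53.8-fold lower in liver and 4.86-fold lower in aorta. The ratio of Ppia to Tbp was 23.3-fold higher in liver, and that of Hprt to Tbp was 21.6-fold higher in liver and 1.27-fold lower in aorta. The ratio of Ppia to Hprt moved least in liver, 1.08-fold, and was 1.90-fold higher in aorta. These ratios are free of the scaling but not of the background step. With normexp, which here added an offset of 50 intensity units, the liver ratio of Tbp to B2m was 78.3-fold lower. That of Ppia to Tbp was 11.9-fold higher and that of Hprt to Tbp 11.1-fold higher, while the ratio of Gusb to B2m was 50.2-fold lower. The processed intensity of Tbp in liver was 65.1, close to the offset, so correction and offset cannot be told apart in its ratios.

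Control spots named for either end of the Gapdh and Pgk1 transcripts, both of glycolytic enzyme genes, give a reading of RNA condition, with 10 spots per end. For Pgk1, the log2 intensity of 5′ minus 3′ spots was -3.09 and -3.57 on the wild-type arrays, -3.91 and -3.58 on the knockout arrays and -3.16 and -3.15 on the Myocd arrays. It was -4.60 in aorta. In liver it was -11.33, the 5′ spots had a mean intensity of 7.48 with none of the 10 well above background, and the 3′ spots stood at 19257. The same difference for Gapdh ran from 0.33 to 0.62 in culture, was 0.36 in aorta and stood at -1.88 in liver. On the liver array 5′ signal was thus low relative to 3′ signal for both transcripts, and on the aorta array it was lower than in culture for Pgk1 alone. The sources used here do not give which part of each transcript the 5 reference probes match. The low levels of Tbp and Gusb in liver and the low 75th percentile of that array lie on the array with the weakest 5′ signal, and the part of RNA condition in these differences was not tested.

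**Figure D5:**
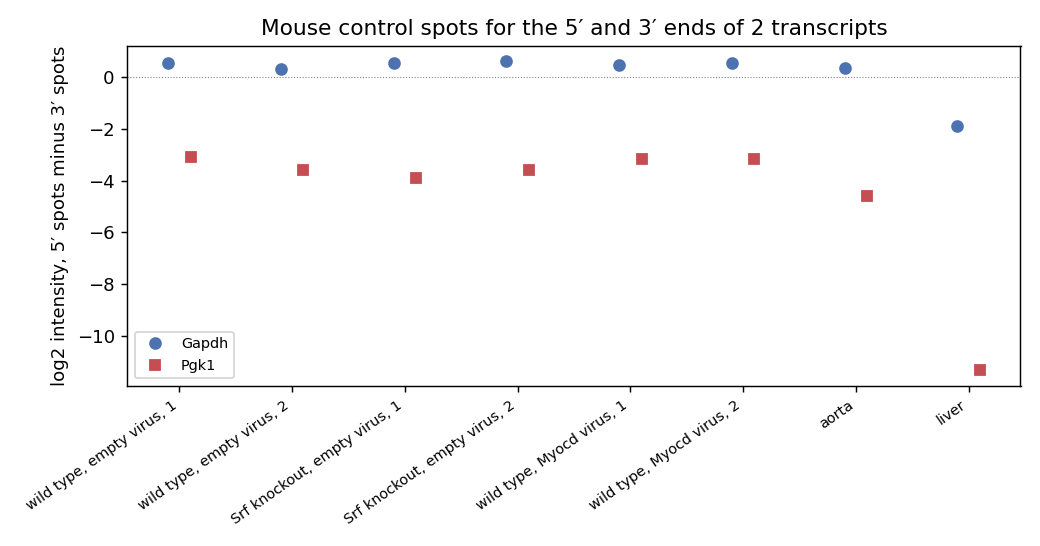
Log2 intensity of the 5′ spots minus the 3′ spots (vertical axis) of mouse Gapdh and Pgk1 control probes on each array (horizontal axis). The cultured arrays lie between 0.33 and 0.62 for Gapdh and between -3.91 and -3.09 for Pgk1, and liver lies at -1.88 and -11.33.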

How the data were processed

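The deposited scanner files come, per the file headers, from Agilent Feature Extraction 11.0.1.1 (design build mm9) and hold a background-subtracted processed intensity per spot. The authors also deposited a log2 table of 42566 of the probes tested here, which has none of the 5 reference probes and served only for counts of calls. From the deposited intensity, flagged spots were dropped and a probe's spots averaged as log2 values. A probe was tested if at least 50% of its spots were well above background on every array of 1 cultured group. Group means of all 6 cultured arrays were compared with limma 3.58.1 in R 4.3.3 (3 residual degrees of freedom, two-sided, Benjamini-Hochberg adjusted over 43985 probes, called under 0.05), and the script was tested on simulated data. The planned normexp on mean signals used median signals, the column given, with an offset of 50 intensity units. Probe accessions were matched to a GRCm38.p6 RefSeq table (15 of 15). The members, lists and alternatives were chosen with earlier results of these data known. The named genes are the 5 members and, for each, the 2 identified genes with the steadiest ratio to it. Other identified genes appear as counts or extremes chosen after their values were seen. The named lists of cell type markers had no identified probe.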

Additional observations from a re-analysis of the deposited data

Results flagged for a closer look

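Control spots outside the main measurement stood apart on the liver array. The log2 intensity of 5′ minus 3′ spots was -11.33 for Pgk1, against -3.91 to -3.09 on the 6 cultured arrays and -4.60 in aorta, and it was -1.88 for Gapdh, against 0.33 to 0.62 on the cultured arrays and 0.36 in aorta. There was 1 liver array, so this value has no replicate.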

How the results depend on the processing

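Gusb kept its direction in both Myocd comparisons under all alternatives run. Its log2 change against wild-type cells did not pass limma's threshold (adjusted p = 0.0585) or in 15 of 19 alternatives, with adjusted p up to 0.294. It passed at -0.65 with median scaling and at -0.55 with normexp, with a filter for signal on all 6 cultured arrays and with trend and robust settings. Leaving out 1 array at a time, its change against knockout cells ran from -0.90 to -0.71 and its F statistic from 6.05 to 18.8. Several changes near 0 turned their sign. In the knockout comparison these were Ppia with quantile normalization (0.015) and against the mean of the other 4 genes (0.020), and B2m with median scaling (-0.18). With Myocd against wild-type cells they were Ppia (-0.074) and B2m (-0.036) with median scaling. Between Myocd and knockout cells they were Tbp with median scaling (0.068) and, against the mean of the other 4 genes, Hprt (0.084) and Tbp (0.17). Leaving out 1 array gave ranges of -0.20 to 0.13 for Ppia and -0.14 to 0.16 for B2m in the knockout comparison, -0.15 to 0.18 and -0.090 to 0.20 with Myocd against wild-type cells, and -0.0020 to 0.11 and -0.11 to 0.20 between Myocd and knockout cells, where Tbp ran from -0.070 to 0.015. The causes were not tested.

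Counts of called probes with Myocd against wild-type cells were 4206 with no filter on dim probes, 3913 with only the groups compared and 4407 with the replicate block. The replicate block gave 6399 for the knockout and 10063 between Myocd and knockout cells, and changed no call of the 5 genes. Correlations of replicate differences were -0.26, -0.070 and 0.089 between groups, so the numbers were not taken as pairs. The crossed replicate block, added after the data were seen, gave 8235, 5725 and 11566 calls. B2m alone as the scale gave 5396 calls for the knockout and 3928 for Myocd, and Gusb alone gave 16843 for Myocd and 27767 between Myocd and knockout cells. Leaving out 1 array gave 2702 to 13169, 2142 to 9206 and 5946 to 16143 calls in the 3 comparisons. The authors' table has none of the 5 reference probes, so it gave counts only.

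The range over the cultured arrays with quantile normalization was 0.042 for Ppia, 0.35 for Hprt and 0.83 for Gusb. With median scaling it was 0.51 for Ppia, 0.63 for Hprt, 0.52 for Tbp and 0.53 for B2m, and with no scaling it was 0.48 for Tbp. Against the mean of the other 4 genes it was 0.27 for Hprt, 0.49 for Tbp and 0.52 for B2m. Leaving out 1 array gave 0.19 to 0.33 for Ppia, 0.22 to 0.47 for Hprt, 0.32 to 0.39 for Tbp and 0.78 to 0.97 for Gusb. With normexp the SD of the ratio over 8 arrays was 1.19 for Ppia and Tbp, 1.25 for Hprt and Tbp, 2.14 for Tbp and B2m and 0.46 for Tbp and Gusb.

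Differences between tissues moved most with the scaling, in log2 units. With median scaling, aorta minus liver was -0.28 for Ppia, -1.10 for Hprt, 3.68 for Tbp, -1.89 for B2m and 1.58 for Gusb. With median scaling, aorta minus wild-type cells was -0.90 for Ppia, -1.83 for Hprt, -1.49 for Tbp, 0.15 for B2m and -2.13 for Gusb. With median scaling, liver minus wild-type cells was -0.62 for Ppia, -0.73 for Hprt, -5.17 for Tbp, 2.04 for B2m and -3.71 for Gusb. With no scaling between arrays, aorta minus liver was 0.64 for Ppia, -0.18 for Hprt, 4.60 for Tbp, -0.97 for B2m and 2.50 for Gusb. With no scaling between arrays, aorta minus wild-type cells was -0.81 for Ppia, -1.74 for Hprt, -1.40 for Tbp, 0.24 for B2m and -2.04 for Gusb. With no scaling between arrays, liver minus wild-type cells was -1.45 for Ppia, -1.56 for Hprt, -6.00 for Tbp, 1.21 for B2m and -4.54 for Gusb. With normexp, aorta minus liver was -0.26 for Ppia, -1.08 for Hprt, 2.76 for Tbp and 1.47 for Gusb. With normexp, aorta minus wild-type cells was -1.70 for Gusb. With normexp, liver minus wild-type cells was -0.24 for Ppia, -0.34 for Hprt, -3.81 for Tbp, 2.48 for B2m and -3.17 for Gusb. With quantile normalization, aorta minus liver was 0.76 for Ppia, -0.46 for Hprt, 3.99 for Tbp, -0.59 for B2m and 1.46 for Gusb. With quantile normalization, aorta minus wild-type cells was -1.04 for Hprt, -0.74 for Tbp, 0.95 for B2m and -1.39 for Gusb. With quantile normalization, liver minus wild-type cells was -1.12 for Ppia, -0.58 for Hprt, -4.74 for Tbp, 1.54 for B2m and -2.85 for Gusb. Against the mean of the other 4 genes, aorta minus liver was -0.85 for Ppia, -1.87 for Hprt, 4.10 for Tbp, -2.86 for B2m and 1.48 for Gusb. Against the mean of the other 4 genes, aorta minus wild-type cells was 0.43 for Ppia, -0.74 for Hprt, -0.31 for Tbp, 1.73 for B2m and -1.11 for Gusb. Against the mean of the other 4 genes, liver minus wild-type cells was 1.27 for Ppia, 1.13 for Hprt, -4.41 for Tbp, 4.60 for B2m and -2.59 for Gusb. With outlier spots kept, aorta minus liver was 3.41 for Tbp. With outlier spots kept, liver minus wild-type cells was -4.42 for Tbp.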
